A study of Mus musculus with 8 samples.

Results

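The 8 dorsal root ganglion libraries of the series fell into 4 and 4 along the main axis of their expression values. On the first principal component, scores were negative for 4 libraries, labelled male 1 to 3 and female 2, and positive for the other 4, labelled male 4, female 1, female 3 and female 4. These are called the negative-side and the positive-side libraries below. The sides were chosen by the sign of that score, which was computed from the expression values of all analysed genes, so every difference in expression between them is given as a description of these 8 libraries, without a test. The sign of a component is arbitrary and carries no meaning of its own.

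Dorsal root ganglia lie beside the spinal cord and hold the cell bodies of sensory neurons, wrapped by satellite glia, together with axons that Schwann cells ensheath or myelinate, connective tissue and vessels. In such bulk RNA the level of a transcript depends both on which cells the dissected piece held and on how each RNA passed through extraction and library construction. Libraries primed at the 3′ ends of transcripts, as here, sample a short stretch of each message, so the state of that end bears on what is counted. All 8 libraries came from dorsal root ganglia of wild-type mice of the strain labelled SW, usually read as the outbred Swiss Webster stock, with saline as treatment. On both sides, RNA isolation used TRIzol, RiboCop removed ribosomal RNA, and QuantSeq libraries followed, per the labels' protocols. The labels give sex and replicate number, and no dissection, extraction or sequencing batch. They do not say whether a library stands for 1 animal or several.

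The negative-side libraries held 8184300 to 12155800 counted reads and the positive-side libraries 7497800 to 11093900. The means were 9933325 ± 1694616 and 9069175 ± 1665302 reads (SD, n = 4 each), which did not differ beyond the spread of the libraries (exact permutation test, two-sided, p = 0.486, smallest possible p 0.0286). Of the negative-side libraries 3 of 4 carried a male label, against 1 of 4 on the positive side (Fisher's exact test, two-sided, p = 0.486). Adjusted over these 2 tests, both p remained 0.486 by the Benjamini-Hochberg method. The sex genes of the libraries labelled male 1 and female 1 did not match their labels. By Xist, the RNA that silences an X chromosome, the sides were balanced. It stood at 294, 1.63, 2.45 and 162 CPM (reads of a gene per 1000000 counted reads) in male 1, 2, 3 and female 2, against 5.44, 0.27, 349 and 319.9 CPM in male 4 and female 1, 3 and 4. Each side thus held 2 libraries high and 2 low in Xist, and the Y-linked helicase gene Ddx3y was high in the other 2 of each side. Tissue markers were present throughout, with the nociceptor sodium channel gene Scn10a at 502 to 754 CPM in the negative-side and 662 to 929 CPM in the positive-side libraries, and the Schwann cell myelin gene Pmp22 at 2339 to 3126 CPM in the negative-side and 594 to 1249 CPM in the positive-side libraries.

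The 3 genes of a ribosomal RNA locus on chromosome 17, AY036118, Rn18s-rs5 and Gm42418, were listed at 0 in 3 libraries, all on the positive side. AY036118 had 46216, 25395, 34747 and 20085 CPM in male 1, 2, 3 and female 2, against 0, 43401, 0 and 0 CPM in male 4 and female 1, 3 and 4. The locus took 3.38 to 7.78% of the reads of the negative-side libraries and 7.60% in female 1. Listing at 0 therefore split the positive side, and only female 1 could be set against the negative side among libraries with reads there. In those 5 libraries 2994 genes met the limits defined below in the higher and 674 in the lower direction, 4 libraries against 1. The 3 libraries listed at 0 were all on one side and allow no such comparison.

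The first principal component of log2(CPM + 1) over 14505 genes held 59.3% of the variance, the second 13.4% and the third 10.9%. Scores on it were −44.2 in male 1, −59.2 in male 2, −23.6 in male 3 and −52.3 in female 2. They were 30.3 in male 4, 58.3 in female 1, 49.9 in female 3 and 40.8 in female 4. The libraries nearest to 0 were thus male 3 on the negative side and male 4 on the positive side, and none lay close to the boundary. Projected on the component computed from the other 7 libraries, 8 of 8 scored on the same side. With every gene scaled to unit variance, the component held 44.1% and the sides were again the same 8 of 8. Both reruns used the values that formed the sides, so the agreement is no independent support for the split.

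**Figure D1:**
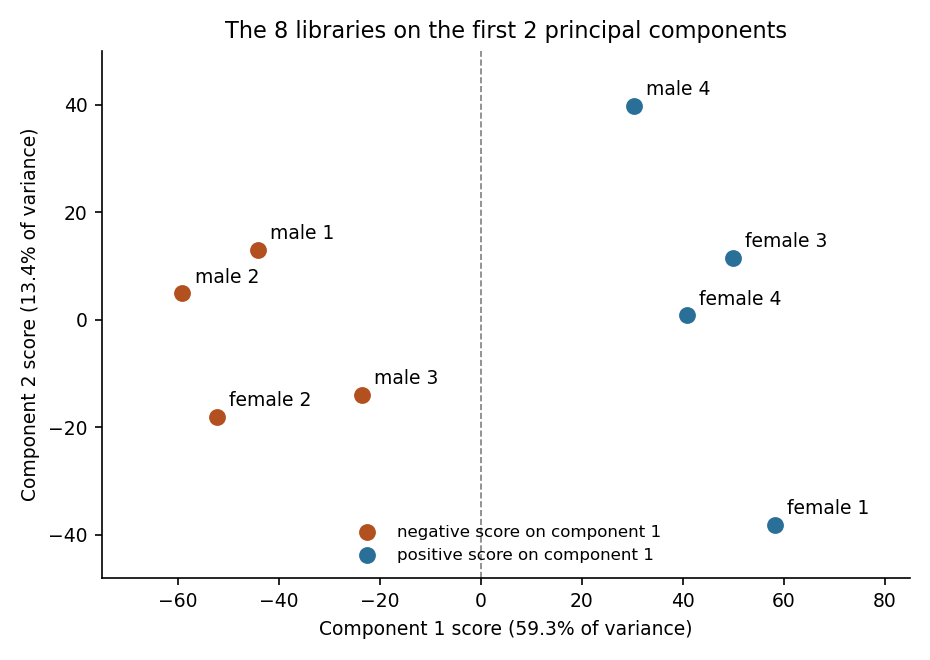
Scores of the 8 libraries on the first and second principal components of gene-centred log2(CPM + 1), with negative-side libraries in brown and positive-side libraries in blue. The dashed line marks a score of 0, from which male 3 (−23.6) and male 4 (30.3) were the least distant, and on the vertical axis male 4 (39.8) and female 1 (−38.1) lay furthest apart.

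Differences are negative-side minus positive-side means of log2(CPM + 1), so a value of 1 is a 2-fold higher level in the negative-side libraries. A gene was counted where that difference was at least 1 in size and the 4 values of one side did not overlap the 4 of the other. Of the 14505 genes, 1687 (11.6%) were counted as higher and 316 (2.18%) as lower in the negative-side libraries. These shares follow from the way the sides were formed, and nothing is read from them. Without the size limit the sides did not overlap for 3352 genes (23.1%) in the higher and 1478 genes (10.2%) in the lower direction, together 33.3%. Differences of at least 4-fold without overlap were seen in 228 genes in the higher and 3 genes in the lower direction, and of at least 8-fold in 15 and 0. Over the whole set 8839 genes (60.9%) had higher values in the negative-side libraries. The numbers of list members higher or counted below stand beside 60.9%, 11.6% and 2.18% of all genes. The median difference over all genes was 0.17. Median ratio scaling brought it to −0.02, and each list median below has this shift as its backdrop. That scaling changed the counts to 1178 higher and 619 lower, which moved the share of higher ones among those counted to 65.6%, against 84.2% as deposited.

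Predicted and clone-based symbols aside, the genes with the largest higher values spanned metabolism, secretion, transport and membrane traffic. Nme3, a nucleoside diphosphate kinase gene (GRCm38, chromosome 17, 24896500 to 24897522), had 16.9, 50.1, 26.3 and 44.8 CPM in male 1, 2, 3 and female 2, against 0.727, 0.413, 0 and 0 CPM in male 4 and female 1, 3 and 4. A count of 0 allows up to 0.378 CPM in female 3 and 0.40 CPM in female 4, for counting error only, so the difference of 4.71 (SE 0.40) depends on the pseudocount. Nme3 shares 480 of its last 500 exonic bases with exons of Mrps34 on the same strand, whose own difference was −0.26, with overlapping sides.

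Fam89a (chromosome 8, 124740257 to 124751832) stood at 177, 422, 181 and 429 CPM in male 1, 2, 3 and female 2, against 9.23, 7.93, 22.1 and 12.0035 CPM in male 4 and female 1, 3 and 4. Its difference was 4.43 (SE 0.47), and the lowest negative-side library lay far above the highest positive-side one. Sepp1, which encodes the selenium carrier selenoprotein P (chromosome 15, 3268547 to 3280508), had 432, 431, 257 and 470.4 CPM in male 1, 2, 3 and female 2, against 51.7, 29.0, 33.5 and 51.1 CPM in male 4 and female 1, 3 and 4. Its difference of 3.24 (SE 0.29) was also among the largest relative to the spread within sides. Others in the same direction were the adhesion gene Ceacam10 (3.36), the transporter gene Slc43a3 (3.21), the endosomal sorting gene Snx3 (3.17), Serping1, which encodes the C1 inhibitor of complement (3.06), the ATP synthase-associated gene Usmg5 (3.02), the protease inhibitor gene Serpina3n (3.01) and the lipocalin receptor gene Slc22a17 (2.98).

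Lower genes reached smaller sizes. The small nucleolar RNA Snora81 (chromosome 16, 23110756 to 23110933) had 60.2, 21.9, 54.4 and 21.2 CPM in male 1, 2, 3 and female 2, against 209.9, 167, 292 and 234 CPM in male 4 and female 1, 3 and 4, a difference of −2.62 (SE 0.43). It lies within the transcribed region of Eif4a2, with exon overlap on the same strand, and Eif4a2 itself went the other way, with a difference of 0.42. Dusp5, a phosphatase gene that acts on ERK kinases (chromosome 19, 53529109 to 53542431), had 29.2, 19.1, 28.9 and 19.7 CPM in male 1, 2, 3 and female 2, against 91.1, 142, 97.7 and 91.2 CPM in male 4 and female 1, 3 and 4 (difference −2.08, SE 0.22). Mapk3, which encodes the ERK1 kinase (chromosome 7, 126759601 to 126765819), had 1123, 995, 2053 and 1505 CPM in male 1, 2, 3 and female 2, against 3148, 6136, 5262 and 3971 CPM in male 4 and female 1, 3 and 4 (difference −1.72, SE 0.32). The splicing regulator gene Khdrbs3 (−1.93), Bhlhb9 (−1.78), the acetyltransferase gene Nat9 (−1.78), the actin-bundling gene Dmtn (−1.76), the snRNA transcription gene Snapc3 (−1.71) and the guanine nucleotide exchange factor gene Arhgef11 (−1.71) were also lower without overlap. The last 500 exonic bases of Arhgef11 lie wholly over exons of the opposite-strand gene Lrrc71, whose difference was 0.15. The sources used here do not state whether counting used strand.

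**Figure D2:**
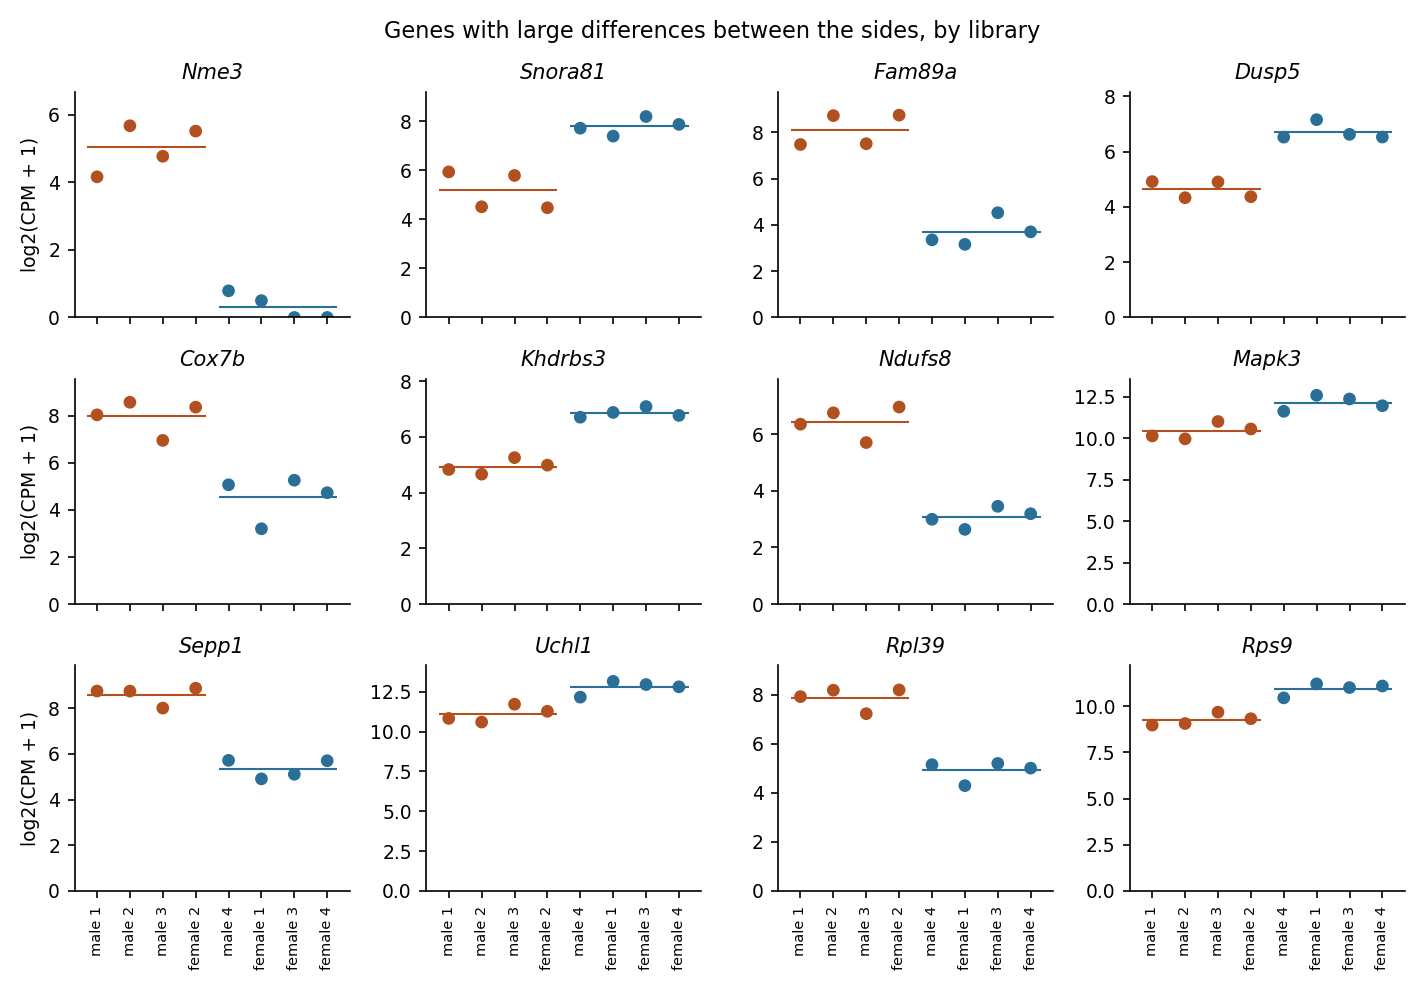
Levels of 12 genes as log2(CPM + 1) by library, with the 4 negative-side libraries (brown) left of the 4 positive-side libraries (blue) and a line at each side's mean. In each of the 12 panels the 4 values of one side lie wholly above or below those of the other, from a difference of 4.71 for Nme3 to −2.62 for Snora81.

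Other genes, some with differences below 1 in size, were separated as cleanly, because their values hardly varied within a side. Csnk1e, a casein kinase gene of the circadian clock, had 83.6, 77.9, 88.5 and 80.2 CPM in male 1, 2, 3 and female 2, against 137, 136, 140.4 and 135 CPM in male 4 and female 1, 3 and 4 (difference −0.73, SE 0.04). Rhoq, a small GTPase gene, differed by −0.57 (SE 0.03), Ylpm1 by −0.57 (SE 0.05) and the protein kinase C gene Prkcb by −1.54 (SE 0.13). In the other direction were the start-site selection factor gene Eif1 (1.17, SE 0.10), Atxn10 (0.89, SE 0.07), the ubiquitin ligase subunit gene Rbx1 (0.98, SE 0.09) and the glycolytic isomerase gene Gpi1 (0.80, SE 0.07). Over all genes the median SD within sides was 0.31 on the log2 scale.

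Nuclear genes of oxidative phosphorylation, the respiratory chain and ATP synthase of mitochondria, were the large family with the highest median, 1.08 against 0.17 for all genes, and 0.86 after median ratio scaling. Of 80 tested members 71 had higher values in the negative-side libraries, against 60.9% of all genes. Of the 80, 45 were counted as higher (56.25%, against 11.6% of all genes) and 0 as lower. Complex IV, cytochrome c oxidase, was higher in 12 of 12 members with a median of 1.65. The medians were 1.46 for complex II (4 of 4 members), 1.20 for complex III (7 of 9), 1.03 for complex I (32 of 37) and 1.02 for ATP synthase (16 of 17). Cox7b (chromosome X, 106015700 to 106022450) had 262, 381, 123 and 329 CPM in male 1, 2, 3 and female 2, against 32.6, 8.20, 37.4 and 25.6 CPM in male 4 and female 1, 3 and 4 (difference 3.42, SE 0.59). Ndufs8, an iron-sulfur subunit gene of complex I (chromosome 19, 3908863 to 3912774), had 80.6, 107, 51.1 and 123 CPM in male 1, 2, 3 and female 2, against 6.97, 5.23, 9.96 and 8.14 CPM in male 4 and female 1, 3 and 4 (difference 3.37, SE 0.33). Subunits of the same complex nevertheless lay on both sides of 0. Ndufs5 of complex I averaged 219.7 ± 56.5 CPM in the negative-side and 369 ± 118 CPM in the positive-side libraries (SD, n = 4 each, difference −0.73, sides overlapping).

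Transcripts of the mitochondrial genome did not move as a block. Of 12 tested messenger RNAs 9 were higher in the negative-side libraries, with a median of 1.21. Of the 12, 3 were counted as higher (25%, against 11.6% of all genes) and 1 as lower (8.33%, against 2.18%). The cytochrome b message mt-Cytb had 1709.7, 1216, 426 and 701 CPM in male 1, 2, 3 and female 2, against 342, 96.6, 235 and 228 CPM in male 4 and female 1, 3 and 4 (difference 2.11, SE 0.58). The message of cytochrome oxidase subunit 3, mt-Co3, had 529, 180.1, 369.7 and 97.6 CPM in male 1, 2, 3 and female 2, against 982, 681, 1229.5 and 868 CPM in male 4 and female 1, 3 and 4 (difference −1.92, SE 0.57). Both come from the same polycistronic strand. The ribosomal RNA mt-Rnr1 averaged 4112 ± 844 CPM in the negative-side and 8120.4 ± 1171 CPM in the positive-side libraries (SD, n = 4 each, difference −0.99), without overlap. Together the 2 mitochondrial ribosomal RNAs took 2.93 to 4.89% of the negative-side and 5.05 to 9.56% of the positive-side reads. The median of the messages rested in part on the replicate 1 libraries and was 0.47 without both.

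Genes of cytosolic ribosomal proteins, which are made in matched amounts, had a median of 0.79, and 0.57 after median ratio scaling. Of 84 tested members 66 were higher in the negative-side libraries. Counted as higher were 34 (40.5%, against 11.6% of all genes) and as lower 3 (3.57%, against 2.18%). The large subunit had a median of 0.98 over 50 genes and the small subunit 0.37 over 34. Rpl39 (chromosome X, 37082520 to 37085402) had 241, 289.5, 148 and 291 CPM in male 1, 2, 3 and female 2, against 34.4, 18.6, 35.7 and 31.1 CPM in male 4 and female 1, 3 and 4 (difference 2.97, SE 0.31). Rps29 averaged 2295 ± 728 CPM in the negative-side and 329 ± 93.0 CPM in the positive-side libraries (SD, n = 4 each, difference 2.79, SE 0.33), and Rpl7a differed by 2.32. Rps9 (chromosome 7, 3703993 to 3706897) went the other way. It had 503, 534, 819 and 639 CPM in male 1, 2, 3 and female 2, against 1401, 2369.7, 2063 and 2186 CPM in male 4 and female 1, 3 and 4 (difference −1.68, SE 0.23). Rpl24 also averaged less in the negative-side libraries, 356 ± 61.4 CPM, against 758 ± 251 CPM in the positive-side libraries (SD, n = 4 each, difference −1.05). Ribosomal protein genes have many near-identical pseudogenes, so their counts are uncertain where reads map to several copies.

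**Figure D3:**
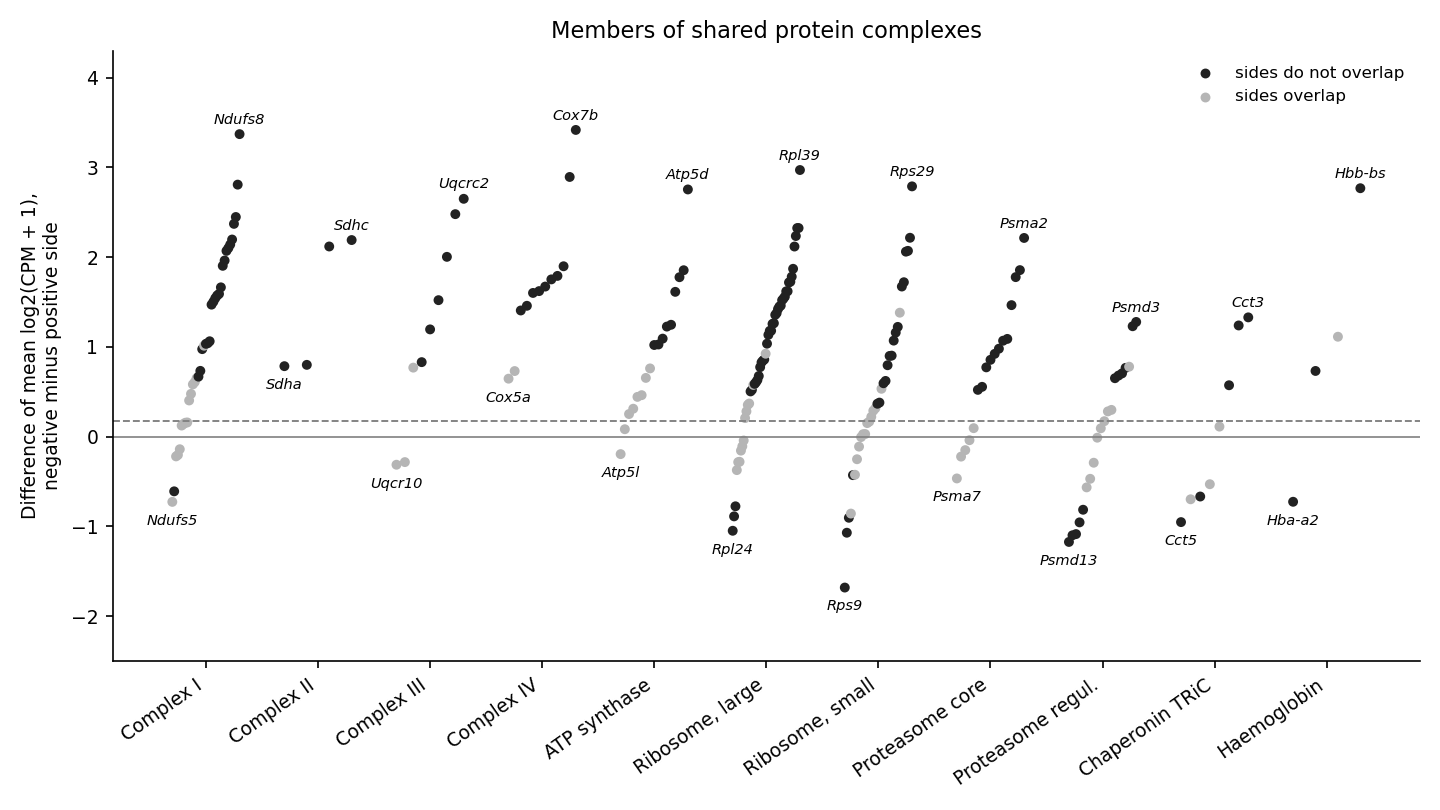
Differences between the sides for every tested gene of 11 assemblies, ranked within each, in black where the sides did not overlap and grey where they did, with the highest and lowest gene named. The dashed line is the median of all genes (0.17), and both signs occur within the ribosome (2.97 for Rpl39, −1.68 for Rps9), the proteasome, the chaperonin and haemoglobin.

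The same pattern, with partners of one assembly differing in opposite directions, held for other housekeeping families. Mitochondrial ribosomal protein genes had a median of 0.54, with 61 of 76 higher, from Mrpl4 (2.27), Mrpl27 (2.25) and Mrps6 (2.17) to Mrpl10 (−0.78). Of the 76, 20 were counted as higher (26.3%, against 11.6% of all genes) and 0 as lower. Proteasome genes had a median of 0.52. Of 37, 8 were counted as higher (21.6%, against 11.6% of all genes) and 3 as lower (8.11%, against 2.18%). The core subunit gene Psma2 averaged 713 ± 158 CPM in the negative-side and 157 ± 53.8 CPM in the positive-side libraries (SD, n = 4 each, difference 2.21). The regulatory subunit gene Psmd13 averaged 533 ± 194 CPM in the negative-side and 1166 ± 264 CPM in the positive-side libraries (SD, n = 4 each, difference −1.17), and neither overlapped. Within the chaperonin TRiC, a ring of 8 different subunits that folds actin and tubulin, Cct3 had a difference of 1.33 and Cct5 of −0.95, both without overlap. Translation factor genes ranged from Eif3g (2.54), an initiation factor 3 subunit, to Eif2b5 (−1.21), the catalytic subunit of the factor whose subunit gene Eif2b1 had 1.75. Of 64 translation factor genes 14 were counted as higher (21.9%, against 11.6% of all genes) and 1 as lower (1.56%, against 2.18%).

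Chaperone genes stood in both directions. Hspa8, the constitutive heat shock protein 70 gene (chromosome 9, 40800984 to 40810087), had 322, 419.7, 237 and 429 CPM in male 1, 2, 3 and female 2, against 55.8, 45.2, 59.2 and 83.9 CPM in male 4 and female 1, 3 and 4 (difference 2.50, SE 0.27). The small heat shock protein genes Cryab (2.25) and Hspb1 (1.89) were also higher, whereas another of that class, Hspb8, averaged 1154 ± 466 CPM in the negative-side and 3655 ± 961 CPM in the positive-side libraries (SD, n = 4 each, difference −1.71). The heat shock protein 90 gene Hsp90ab1 was lower too, at 6865, 6445, 11091 and 8313 CPM in male 1, 2, 3 and female 2, against 12158, 15387, 17746 and 15584 CPM in male 4 and female 1, 3 and 4 (difference −0.92). Of 29 chaperone genes 8 were counted as higher (27.6%, against 11.6% of all genes) and 1 as lower (3.45%, against 2.18%). Their median of 0.11 became −0.10 after median ratio scaling, with 0.01 without male 3 or without female 1 and 0.04 without female 2.

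Glycolytic genes had a median of 0.63 over 20 genes. Of these, 5 were counted as higher (25%, against 11.6% of all genes) and 1 as lower (5%, against 2.18%). The glyceraldehyde phosphate dehydrogenase gene Gapdh averaged 48.2 ± 12.3 CPM in the negative-side and 10.3 ± 3.92 CPM in the positive-side libraries (SD, n = 4 each, difference 2.15), and the aldolase gene Aldoa 566 ± 93.6 and 209.6 ± 22.2 CPM (SD, n = 4 each, difference 1.42). The enolase gene Eno1 averaged 13.8 ± 2.78 CPM in the negative-side and 38.7 ± 8.98 CPM in the positive-side libraries (SD, n = 4 each, difference −1.41). Several tubulin genes were higher, with differences of 1.84 for Tuba1a, 1.75 for Tubb5 and 1.70 for Tubb4b, while Tubg1, the nucleating gamma tubulin gene, had −0.81. Gapdh, Eno1 and the tubulin genes also have close copies in the genome, which makes their counts uncertain.

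Neuronal genes differed by class. In bulk libraries such as these, fewer cells of a type and less RNA per cell cannot be told apart. Pan-neuronal genes had a median of −0.01 over 19 genes, with 0 counted as higher and 2 as lower (10.5%, against 2.18% of all genes). They had a median of −0.23 after median ratio scaling, and −0.14 (without female 3) to 0.014 (without male 4) with single libraries left out. Their summed level was lower, at 18964 to 25120.3 CPM in the negative-side and 26425 to 32891 CPM in the positive-side libraries. A sum is weighted toward abundant genes, and of the 19 genes 9 were higher and 10 lower. The 2 counted genes are abundant neuronal genes. Uchl1, which encodes a ubiquitin hydrolase of neurons (chromosome 5, 66676091 to 66687234), had 1815, 1551, 3371 and 2475 CPM in male 1, 2, 3 and female 2, against 4591, 9133, 7942 and 7189.9 CPM in male 4 and female 1, 3 and 4 (difference −1.67, SE 0.33). Prph, which encodes the intermediate filament peripherin of small sensory neurons, averaged 799 ± 267 CPM in the negative-side and 2057 ± 377 CPM in the positive-side libraries (SD, n = 4 each, difference −1.40). The growth-associated microtubule regulator gene Stmn2 went the other way (difference 0.82, without overlap).

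Genes of peptidergic nociceptors, pain neurons that release neuropeptides, had a median of 0.62, with 9 of 13 higher, against 60.9% of all genes. Of the 13, 4 were counted as higher (30.8%, against 11.6% of all genes) and 0 as lower. The catecholamine enzyme gene Th, placed in this list though it marks other sensory and sympathetic neurons, had 45.9, 35.1, 26.7 and 40.8 CPM in male 1, 2, 3 and female 2, against 8.82, 10.6, 8.82 and 8.27 CPM in male 4 and female 1, 3 and 4 (difference 1.89, SE 0.18). Calca, which encodes the neuropeptide CGRP (chromosome 7, 114631478 to 114636357), had 641, 613, 483 and 629.6 CPM in male 1, 2, 3 and female 2, against 346, 106, 274 and 204 CPM in male 4 and female 1, 3 and 4 (difference 1.46, SE 0.38). Tac1, the gene of substance P, which many of the same neurons make, was lower instead, at 226 ± 49.4 CPM in the negative-side and 422 ± 68.9 CPM in the positive-side libraries (SD, n = 4 each, difference −0.91, without overlap).

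Non-peptidergic markers split likewise, with the itch receptor gene Mrgpra3 at 1.54 and Mrgprd at 1.20, against the purinergic receptor gene P2rx3 at −1.28. Among mechanoreceptor and proprioceptor genes 11 of 14 were higher, with a median of 0.54. The 2 counted as higher (14.3%, against 11.6% of all genes) were the nuclear receptor gene Esrrg (1.49) and Ntrk2 (1.10). The mechanically gated channel gene Piezo2 had −0.49. Synaptic vesicle genes had a median of −0.01 over 27 genes, which ran from −0.04 without male 3 or female 4 to 0.12 without male 4. In that list the glycoprotein gene Sv2c had a difference of 1.12 and its relative Sv2b of −1.38, both without overlap. Sodium channel genes held 0 counted members of 10, with Scn9a at −0.77 and Scn11a at 0.62, both again without overlap.

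Myelinating Schwann cell genes were higher in 17 of 20 members, and their median was 0.86, or 0.65 after median ratio scaling. Of the 20, 10 were counted as higher (50%, against 11.6% of all genes) and 0 as lower. The transcription factor gene Sox10, which directs the Schwann lineage (chromosome 15, 79154908 to 79165240), had 70.9, 61.9, 46.6 and 69.2 CPM in male 1, 2, 3 and female 2, against 22.7, 13.6, 18.3 and 16.4 CPM in male 4 and female 1, 3 and 4 (difference 1.76, SE 0.20). The node of Ranvier gene Gldn (1.84) and the membrane protein gene Pllp (1.88) had similar differences. The myelin protein genes Pmp22 and Mbp had differences of 1.49 and 0.63, without overlap. Summed over the list, Schwann cell genes held 17865 to 21285 CPM in the negative-side and 9508 to 14193 CPM in the positive-side libraries.

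Satellite glia genes had a median of 0.45 over 16 genes. Of these, 2 were counted as higher (12.5%, close to the 11.6% of all genes) and 0 as lower. Fabp7, a fatty acid binding protein gene of satellite glia (chromosome 10, 57784881 to 57788450), had 345, 326, 332 and 335 CPM in male 1, 2, 3 and female 2, against 70.6, 22.9, 74.9 and 104 CPM in male 4 and female 1, 3 and 4 (difference 2.46, SE 0.47). Aldoc, a glycolytic aldolase gene, differed by 1.10, without overlap. Ngfr, the low-affinity neurotrophin receptor gene of non-myelinating Schwann cells and many neurons, averaged 70.6 ± 23.7 CPM in the negative-side and 13.5 ± 4.98 CPM in the positive-side libraries (SD, n = 4 each, difference 2.31). It was the 1 counted gene of 10 in its list (10%, against 11.6% of all genes). The list median was 0.26, or 0.04 after median ratio scaling, 0.15 without male 2 or without female 3, 0.17 without male 1 and 0.45 without male 4. Tnfrsf21, a death receptor gene of that list, had −0.64, without overlap.

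**Figure D4:**
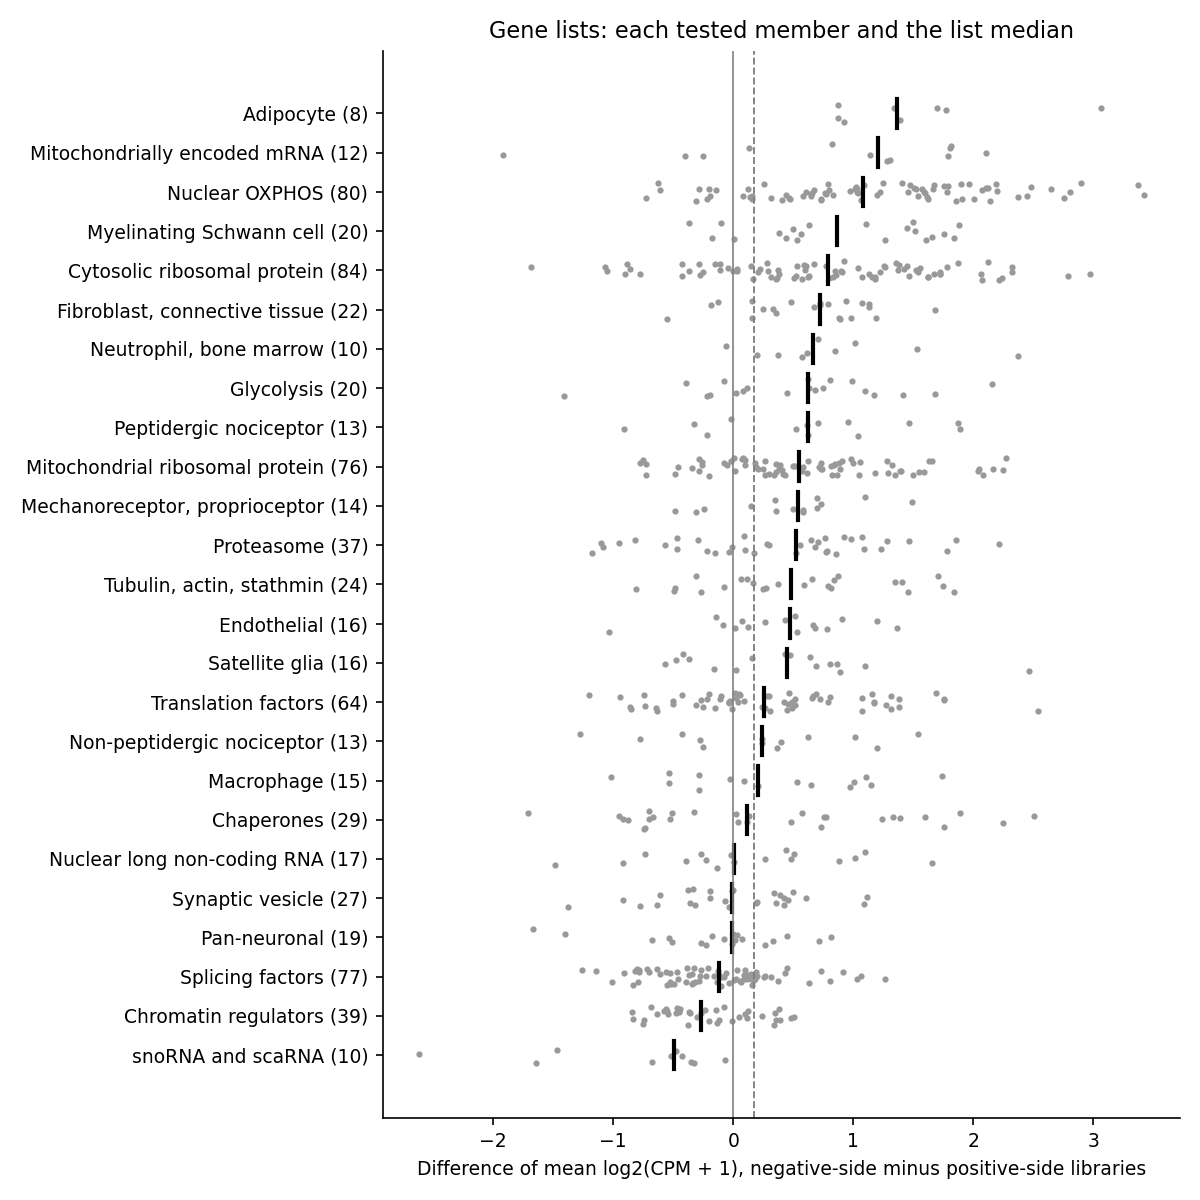
Difference between the sides for each tested member (grey points) of the gene lists, with the list median as a black bar, the number of tested genes in brackets and the all-gene median of 0.17 as a dashed line. Medians ran from 1.36 for 8 adipocyte genes to −0.50 for 10 snoRNA and scaRNA genes, and points of both signs occur in all the lists shown but these 2.

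Markers of surrounding tissue also differed. Fibroblast and connective tissue genes were higher in 19 of 22 members, with a median of 0.72 that was 0.45 without female 1. Of the 22, 4 were counted as higher (18.2%, against 11.6% of all genes) and 0 as lower. The collagen gene Col1a2 averaged 799.8 ± 132 CPM in the negative-side and 361 ± 117 CPM in the positive-side libraries (SD, n = 4 each, difference 1.19), and the microfibril gene Fbn1 had −0.55. All 8 tested adipocyte genes were higher and 3 of them were counted (37.5%, against 11.6% of all genes). The adipokine gene Adipoq had 5.99, 4.46, 2.94 and 5.68 CPM in male 1, 2, 3 and female 2, against 0.82, 0.18, 0.252 and 1.73 CPM in male 4 and female 1, 3 and 4 (difference 1.77). Within the positive side female 4 stood apart, with an adipocyte score, the mean log2(CPM + 1) of the list, of 4.02, against 2.27 to 2.47 in the other 3 and 4.15 to 4.34 in the negative-side libraries. The summed level of the 8 adipocyte genes was 469 to 575 CPM in the negative-side and 122 to 831 CPM in the positive-side libraries. Their part in the other differences was not tested.

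Neutrophil and bone marrow genes had a median of 0.66, with S100a8 at 57.8, 147, 101 and 115 CPM in male 1, 2, 3 and female 2, against 24.8, 13.5, 19.2 and 18.0 CPM in male 4 and female 1, 3 and 4 (difference 2.37). Macrophage genes did not agree in sign. The receptor gene Csf1r had a difference of 1.74, Adgre1 of 1.14 and Cd163 of 1.11, while the complement gene C1qa averaged 107 ± 29.8 CPM in the negative-side and 217 ± 55.8 CPM in the positive-side libraries (SD, n = 4 each, difference −1.02). Its partners C1qb and C1qc, subunits of the same hexamer, had 0.97 and 0.09, and all 3 had overlapping sides. The last 500 exonic bases of Csf1r lie wholly over exons of the opposite-strand gene Hmgxb3. Positive-side values were low for Csf1r, at 0.361 to 1.85 CPM, and Adgre1 had 0.126 CPM in female 3. The macrophage median of 0.21 was 0.03 without female 1, 0.09 without male 1, 0.11 without male 2, 0.13 without female 3, 0.43 without male 3 and 0.44 without female 4.

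Haemoglobin, the marker of blood in the tissue, gave another mixed set. Hbb-bs had 154, 387, 166 and 448 CPM in male 1, 2, 3 and female 2, against 37.8, 25.3, 31.4 and 61.9 CPM in male 4 and female 1, 3 and 4 (difference 2.77), and Hbb-bt differed by 0.73. Hba-a2 had 69.9, 118, 98.0 and 124 CPM in male 1, 2, 3 and female 2, against 163, 133, 236 and 149 CPM in male 4 and female 1, 3 and 4 (difference −0.73), whereas Hba-a1 differed by 1.11, with overlapping sides. The genes of each pair are near-identical, so the assignment of their reads is uncertain. Skeletal muscle genes had a median of 0.58, led by the myosin light chain gene Mylpf (2.44), with summed levels of 2208 to 2649 CPM in the negative-side and 731 to 2899 CPM in the positive-side libraries. That median was 0.34 without female 3 and changed sign, to −0.24, among the 5 libraries with reads at the ribosomal RNA locus.

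Markers of the central nervous system followed one library. Mog, a myelin gene of oligodendrocytes, had 0.855, 37.1, 0.686 and 1.23 CPM in male 1, 2, 3 and female 2, against 0.205, 0.631, 0.126 and 1.20 CPM in male 4 and female 1, 3 and 4. The inhibitory vesicle transporter gene Slc32a1 stood at 64.7 CPM in male 2 and at 0.196 to 1.73 CPM in the other 7 libraries. The list's median difference of 0.46 was 0.09 without male 2 and 0.69 without male 3. The score of male 2 was 4.34, against 1.74 to 2.09 in the other negative-side libraries and 1.68 to 2.09 on the positive side. Without male 2 the counts over all genes were 1562 higher and 276 lower.

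All 10 tested snoRNA and scaRNA genes were lower in the negative-side libraries, with a median of −0.50. Of the 10, 3 were counted as lower (30%, against 2.18% of all genes). Besides Snora81 these were Scarna10 (−1.64) and Snora23 (−1.47), which had 2.07 to 5.29 and 0.544 to 1.15 CPM in the negative-side libraries. The median was −0.84 without female 1 and −0.12 among the 5 libraries with reads at the ribosomal RNA locus. Nuclear long non-coding RNAs had a median of 0.01 over 17 genes, −0.21 after median ratio scaling and −0.11 (without male 1) to 0.34 (without male 4) with single libraries left out, with differences of 1.65 for Gas5, 1.10 for Rian and −1.49 for Peg13. Malat1, an abundant RNA of nuclear speckles, had 17457, 10145, 6602 and 4099 CPM in male 1, 2, 3 and female 2, against 38474, 7336, 14986 and 14600.5 CPM in male 4 and female 1, 3 and 4 (difference −0.92), with overlapping sides. Chromatin regulator genes had 12 of 39 members higher, a median of −0.27 and 0 counted members, with Kdm6b at −0.84, Chd7 at −0.83 and Setd5 at 0.51. Splicing factor genes had a median of −0.12, with 3 of 77 counted in each direction, from Sf3b4 (1.26) to Srsf9 (−1.26), and the median was −0.19 without female 3.

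Transcript length, an annotation that the rule did not use, ran along with the differences, which come from the values that formed the sides. Among 13100 protein-coding genes placed in quintiles by the length of 1 principal transcript a gene in GENCODE M21, the median difference was 0.47 in the shortest quintile, then 0.23, 0.19, 0.15 and 0.03 in the longest. Genes counted as higher made up 24.2%, 13.2%, 10.6%, 7.86% and 3.97% of these quintiles and genes counted as lower 2.40%, 2.29%, 2.33%, 1.91% and 1.18%. Across genes, which are not independent, Spearman's rho was −0.20. Median transcript lengths of families described above were 863 bases for oxidative phosphorylation, 843 for cytosolic and 1302 for mitochondrial ribosomal protein genes and 8575 for chromatin regulators. The 3 short families held 190 of the 2620 genes in the shortest quintile. The other 2430 genes had a median of 0.44, and whether these families bear on the relation to length was not tested.

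**Figure D5:**
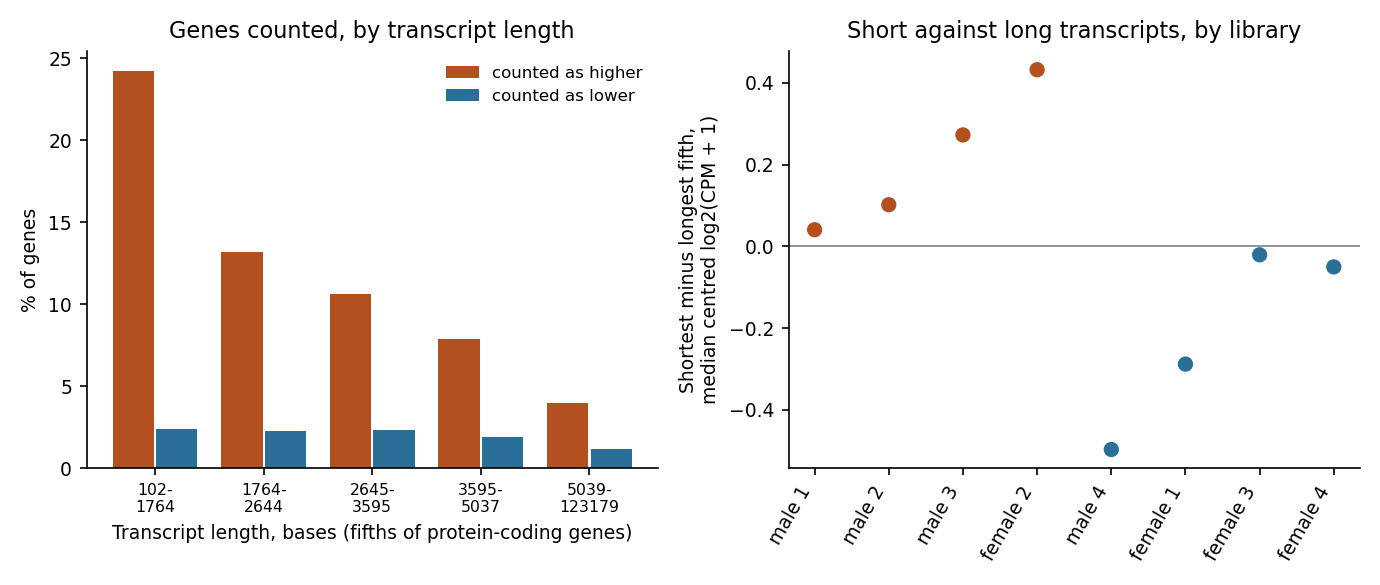
Left, the percentage of protein-coding genes counted as higher (brown) and lower (blue) in the negative-side libraries by quintile of transcript length in bases. Right, the median gene-centred log2(CPM + 1) of the shortest quintile minus that of the longest in each library, which was 0.04 to 0.43 in the negative-side and −0.50 to −0.02 in the positive-side libraries.

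In single libraries the shortest quintile exceeded the longest by 0.04, 0.10, 0.27 and 0.43 in male 1, 2, 3 and female 2, against −0.50, −0.29, −0.02 and −0.05 in male 4 and female 1, 3 and 4. The sides did not overlap in this measure, which was computed from the same values that formed them. Male 1 and female 3 were close to each other in it, although they lay far apart on the component. By the length of the 3′ untranslated region the medians ran from 0.38 in the shortest quintile to 0.07 in the longest, and by gene span from 0.36 to 0.09. By GC content of the transcript they ran from 0.11 in the lowest to 0.25 in the highest quintile, with 0.27 in the one below it, and by that of the 3′ untranslated region the quintiles lay between 0.16 and 0.25. Genes whose last 500 exonic bases overlap an exon of another gene were counted as higher in 15.2% of 1906 cases and as lower in 2.78%, against 11.0% and 2.03% of 12179 genes without such overlap.

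How reads were spread over genes was also described by side. At least 1 CPM was reached by 14207 to 14873 genes in the negative-side and 13305 to 14698 in the positive-side libraries, which overlap. The 100 most abundant genes took 26.5 to 31.6% of reads in the negative-side and 31.7 to 35.5% in the positive-side libraries, ranges that almost meet. These shares include any reads of the ribosomal RNA locus, which was listed at 0 in male 4, female 3 and female 4. In quintiles of mean level the median difference was 0.30, 0.31, 0.22, 0.09 and −0.00 from the lowest to the highest, and 4.96% of the most abundant quintile were counted as lower, against 0.573% of the least abundant.

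The positive-side libraries were less alike than the negative-side ones. Between 130 and 252 genes of a negative-side library departed by at least 1 from the mean of the other 3 on its side, against 262 to 931 genes of a positive-side library. In female 1, 222 genes departed upward and 709 downward, and in male 4, 755 upward and 75 downward. These 2 libraries also formed the ends of the second component, at −38.1 and 39.8. Its largest loadings were taken among abundant genes, predicted and clone-based symbols left out. They were those of Malat1, Xist and Kcnq1ot1 toward male 4 and of AY036118, Rn18s-rs5 and Slc39a7 toward female 1. Gm42418, left out by its symbol, had a loading of −0.144, larger in size than the −0.066 of Slc39a7. Slc39a7, a zinc transporter gene on chromosome 17, took both high and low values on each side, at 10.7, 56.7, 52.3 and 79.3 CPM in male 1, 2, 3 and female 2, against 2.91, 84.7, 2.88 and 59.1 CPM in male 4 and female 1, 3 and 4.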

How the data were processed

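Bulk 3′ RNA sequencing of dorsal root ganglia gave 8 libraries, 4 labelled male and 4 labelled female. Per the submitters' processing notes, tools were Bowtie2 2.2.9, TopHat2 2.1.1, Cufflinks 2.2.1 and FastQC 0.11.5, with the builds mm10 and GRCm38.p4, without saying which tool made the deposited tables. Per the file headers these tables hold TPM, but the deposited values behave as CPM. Each library summed to 1000000, and 98.3 to 98.6% of values below 200 reads were whole within 0.05 of a read, so values were not corrected for transcript length and are called CPM here. The libraries held 7497800 to 12155800 recovered reads.

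The deposited tables were joined by gene (48431 genes) and rows sharing a symbol were summed, which left 48315 symbols. Of these, 14505 averaged at least 1 CPM across libraries and were analysed as log2(CPM + 1). Sides were the sign of the first principal component of gene-centred values. Since the sides came from these values, no gene was tested and no count model was fitted. Only the read totals and the sex label were tested by side, with exact tests. The p-value for read totals refers to the spread among the 8 libraries, which may be technical. That for the sex label refers to the labels as given, which the sex genes of male 1 and female 1 did not match.

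The members and gene lists were chosen with earlier results of these data known. The genes named were, in each direction, the 12 largest differences without overlap at a mean of at least 10 CPM, up to 3 genes a list in the direction of its median and 1 in the other, 5 by difference over within-side spread at a mean of at least 100 CPM, and 3 by loading on the second component, together with preset sex, ribosomal RNA and tissue marker genes. Except among list members and preset genes, predicted or clone-based symbols, such as Gm followed by digits, were left out of these choices. Other genes named, among them overlapping neighbours and further members of a complex, were chosen after their values were seen. So were the split into complexes, the last exon length and the 3′ end overlap. Transcript features came from GENCODE M21, which matched 48052 of the 48431 gene IDs (99.2%). A count of 0 was given the level of 3 reads as its upper limit, and such limits cover counting error only. Alternatives were another pseudocount, another filter, median ratio scaling, ribosomal or mitochondrial genes left out, a 1.5-fold limit, the average within sex labels, the 5 libraries with reads at the ribosomal RNA locus, and each library left out in turn. Leaving out both replicate 1 libraries was added after seeing the data. Python 3.11.15 with NumPy 2.4.6, pandas 2.3.3, SciPy 1.17.1 and matplotlib 3.10.9 was used, and the scripts were checked on simulated data. Some genes that the naming rule picked are not reported here.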

Additional observations from a re-analysis of the deposited data

Results flagged for a closer look

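Within a side of 4 libraries, 1 library lay far from the other 3 in 19 of 346 sets of values examined, and chance alone sets about 1 in 20 apart. Values are log2(CPM + 1), as list means for lists. On the negative side male 3 was the low one for mural and smooth muscle genes (3.83, the others 4.09 to 4.13), Adgre1 (1.83), Cd163 (2.33), Calca (8.92), Sepp1 (8.01) and Tubb5 (8.58), and the high one for Nat9 (5.15). Male 2 was the high one for central nervous system genes (4.34) and Mog (5.25), and male 1 the low one for Ylpm1 (6.64).

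On the positive side female 1 was the high one for the ribosomal RNA locus genes AY036118 (15.41), Rn18s-rs5 (14.87) and Gm42418 (11.38), with the others listed at 0, and for Dusp5 (7.16). It was the low one for Pllp (3.27) and for snoRNA and scaRNA genes (1.98, the others 2.86 to 3.03). Female 4 was the high one for adipocyte genes (4.02) and Eif1 (8.26), and male 4 the high one for genes of very large cytoskeletal proteins (8.12, the others 7.73 to 7.77).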

How the results depend on the processing

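The sides were the same in 8 of 8 libraries with genes scaled to unit variance and with each library projected on the component of the other 7. Both reruns used the values that formed the sides. The share of variance on the first component was 56.3% with a pseudocount of 0.25, 63.0% with 5, 55.0% with no filter, 65.1% at a mean of at least 10 CPM, 73.5% in the 5 libraries with AY036118 above 0, 65.0% without both replicate 1 libraries, and 56.1 to 65.1% with single libraries left out. Genes counted as higher numbered 923 with a pseudocount of 5, 1053 at a mean of at least 10 CPM, 2994 in the 5 libraries and 2950 with a 1.5-fold limit, and 1562 to 2060 with single libraries left out. Genes counted as lower numbered 172 with a pseudocount of 5, 619 after median ratio scaling, 674 in the 5 libraries and 1030 with a 1.5-fold limit, and 276 to 402 with single libraries left out. Median ratio scaling gave list medians of −0.23 for pan-neuronal, 0.23 for satellite glia, 0.57 for cytosolic and 0.34 for mitochondrial ribosomal protein genes. It gave −0.48 for chromatin and −0.10 for chaperone genes. Among lists whose median exceeded the within-side SD of their score, it turned those of replication histones (−0.012), lysosome (−0.020) and circadian clock genes (−0.051). Medians within that SD also changed sign, among them those of sodium (−0.08), calcium (−0.09) and potassium channel genes (−0.08). The 5 libraries gave −0.11 for pan-neuronal, 1.25 for fibroblast, 1.08 for nuclear long non-coding RNA, 2.31 for mitochondrially encoded message, 0.77 for mitochondrial ribosomal protein, 1.56 for oxidative phosphorylation and 0.42 for chaperone genes. Pan-neuronal genes had −0.19 within sex labels, −0.12 without both replicate 1 libraries, where mitochondrial messages had 0.47, and −0.14 to 0.014 with single libraries left out. Peptidergic genes had 0.83 at a mean of at least 10 CPM and 0.59 to 0.82 with single libraries left out. The causes of these shifts were not tested. No paired analysis was possible because no gene or list was tested by side, and the sides do not hold matched sets of replicate numbers for the 2 tests of read totals and sex label. At these depths values under about 1 CPM rest on few reads.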
